A study of Mus musculus with 6 samples.

Results

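Levels of 10 enzyme genes that make or use arginine, ornithine and polyamines were compared in small-intestinal epithelium of C57BL/6 mice at 14 days of age. The genes are Aldh18a1, Oat, Nags, Cps1, Otc, Ass1, Asl, Arg1, Arg2 and Odc1, out of 18193 genes that had a probe set paired with 1 gene on the Affymetrix mouse arrays. They were chosen by name as enzymes of these linked pathways, with earlier results of these data known. For these genes 19 probe sets paired with 1 of them alone were found. The 3 N-cadherin replacement samples had the genotype Ecadflox/Ncad;Vil-Cre, in which Vil-Cre, a recombinase driven by a villin promoter in gut epithelium, acts on a floxed E-cadherin (Cdh1) allele and the epithelium carries N-cadherin (Cdh2). The 3 control samples came from littermates that kept E-cadherin, labelled as control with no further genotype. Both groups shared the strain, the age and the release of the epithelium with EDTA. The labels do not say whether a sample was 1 animal or several, so a p-value speaks only of the scatter among these arrays. That scatter may be technical in part, since only samples of different sex, read below from transcripts, must come from different animals.

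Cells lining the gut of suckling mammals are a site of citrulline and arginine synthesis, since milk supplies little arginine. Glutamate is turned by Aldh18a1 and Oat into ornithine, which Otc joins to carbamoyl phosphate from Cps1 to give citrulline, and Ass1 and Asl convert citrulline to arginine. The arginases split arginine back to ornithine and urea, and Odc1 turns ornithine into putrescine, the first polyamine.

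Vil1, Fabp1, Epcam and the other enterocyte markers, 9 with a probe set of 10 listed, lay above an intensity of 16 on all arrays and summed to 22670 to 31154 in the replacement samples and 28246 to 30266 in the control samples. None of the 9 passed in limma. Of these, Lct lay lower on every replacement array, at 3325, 1668 and 2247, against 4496, 3879 and 4088 in the control samples (-0.87, limma adjusted p = 0.117). Cdh1 was 2.09-fold lower in the replacement samples (log2 difference -1.06, SE 0.240, limma adjusted p = 0.0250), a call lost without control 1 (adjusted p = 0.213), control 2 and control 3 (0.162), replacement 2 (0.0825) or replacement 3 (0.0714). Both Cdh2 probe sets stayed under 16 on all 6 arrays. Where these probe sets lie relative to the altered parts of the alleles was not known here, so they are a limited check of the labels. Control 2 and control 3 were nearly alike: their log2 ratio over 5131 bright probe sets had an SD of 0.115, against 0.346 to 0.563 for other pairs within a group, and they were averaged and counted as 1 sample, which left 3 replacement and 2 control replicates. The SD of 18 hybridization controls was 0.0824 for that pair and 0.0812 to 0.134 over all pairs. Control 1 stood apart, with a summed level of 8 fibroblast and smooth muscle markers of 1320, against 458 to 543 in the replacement samples and 300 and 320 in the other controls. Xist and Y-linked transcripts put control 1, replacement 2 and replacement 3 with females, and replacement 1, control 2 and control 3 with males. Control 1 was thus the only female control, and replacement 1 the only male replacement sample. A difference between the sexes cannot be told apart from one between these single arrays and the others. Values below are probe set intensities, which cannot be compared between genes, and a difference is the mean log2 intensity of the replacement samples minus that of the controls, after a floor of 16.

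Promoter sequence, from 250 bases before to 50 after the annotated start, was at hand from RefSeq (build GRCm38.p6) for 6 of the 10 genes. Arg1, Arg2, Asl and Cps1 had none there. Shown are Aldh18a1, Nags and Otc, whose brightest probe set lay lower on every replacement array, Odc1, whose brightest probe set lay higher, and Ass1, for which no probe set of its own was bright enough to test. Aldh18a1 is at chr19:40588414-40588713 on the minus strand, Nags at chr11:102145263-102145562 on the plus strand, Ass1 at chr2:31470020-31470319 on the plus strand, Otc at chrX:10252055-10252354 on the plus strand and Odc1 at chr12:17544623-17544922 on the plus strand. Each is written 5′ to 3′ on the gene's strand, with capitals for the E-box CACGTG and the GC box GGGCGG read on either strand.
Aldh18a1: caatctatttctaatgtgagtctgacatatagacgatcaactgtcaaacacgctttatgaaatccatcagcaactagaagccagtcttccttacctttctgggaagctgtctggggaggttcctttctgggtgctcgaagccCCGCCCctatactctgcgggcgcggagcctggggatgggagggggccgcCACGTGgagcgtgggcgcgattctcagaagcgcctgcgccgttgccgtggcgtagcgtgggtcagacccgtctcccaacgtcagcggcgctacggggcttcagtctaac
Nags: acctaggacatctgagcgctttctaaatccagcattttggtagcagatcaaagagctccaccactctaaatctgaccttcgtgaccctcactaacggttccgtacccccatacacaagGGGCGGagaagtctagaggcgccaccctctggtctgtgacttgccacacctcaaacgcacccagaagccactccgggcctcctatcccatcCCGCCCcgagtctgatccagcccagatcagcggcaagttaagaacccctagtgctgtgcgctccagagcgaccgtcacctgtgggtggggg
Otc: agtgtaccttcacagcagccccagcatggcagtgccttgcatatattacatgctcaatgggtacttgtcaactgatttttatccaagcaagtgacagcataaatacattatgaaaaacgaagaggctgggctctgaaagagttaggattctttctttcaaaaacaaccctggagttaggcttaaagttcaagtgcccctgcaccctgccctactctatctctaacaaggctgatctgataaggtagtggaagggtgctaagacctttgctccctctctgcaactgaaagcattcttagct
Ass1: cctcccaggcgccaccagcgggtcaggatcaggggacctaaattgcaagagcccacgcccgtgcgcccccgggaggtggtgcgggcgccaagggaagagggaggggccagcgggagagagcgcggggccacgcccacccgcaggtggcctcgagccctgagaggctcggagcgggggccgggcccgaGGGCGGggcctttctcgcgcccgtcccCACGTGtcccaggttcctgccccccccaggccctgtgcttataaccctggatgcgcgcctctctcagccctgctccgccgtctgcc
Odc1: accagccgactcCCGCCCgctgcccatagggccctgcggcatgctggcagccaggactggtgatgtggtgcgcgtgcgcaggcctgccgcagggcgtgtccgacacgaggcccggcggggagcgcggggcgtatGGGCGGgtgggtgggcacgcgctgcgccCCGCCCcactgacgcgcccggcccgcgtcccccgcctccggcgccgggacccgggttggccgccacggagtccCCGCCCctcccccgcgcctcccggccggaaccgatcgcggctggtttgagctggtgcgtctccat
The Aldh18a1 sequence held 1 E-box, at -59 to -54 from the start, and 1 GC box on the reverse strand at -108 to -103. Nags held 2 GC boxes, at -132 to -127 and on the reverse strand at -41 to -36, and no E-box. Ass1 held 1 E-box, at -36 to -31, and 1 GC box at -63 to -58. Odc1 held 4 GC boxes and no E-box, and Otc held neither. No match overlapped another. TATAAA and CCAAT, searched on both strands too, were in none of the 5. A match is a run of letters in this window and not a binding site. Among 32851 promoters of this length 7.15% held CACGTG, 35.7% held GGGCGG, 13.6% held TATAAA and 37.4% held CCAAT. GC content was 58.3% for Aldh18a1, 57.7% for Nags, 44.3% for Otc, 74.0% for Ass1 and 78.0% for Odc1, against a median of 52.7% over all promoters.

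The question was which of these enzymes differ when the epithelium carries N-cadherin in place of E-cadherin. Of the 10 genes 8 had a probe set that reached 16 on at least 3 arrays and were tested. Arg2, the mitochondrial arginase, rose, and no other gene of the list passed the test in either direction (limma, p adjusted by Benjamini-Hochberg over all genes tested, threshold 0.05). That is 1 of 8, or 12.5%, where 9.12% of the 12994 genes tested were called, 4.46% higher and 4.66% lower. The replacement arrays lay wholly below the control arrays for Aldh18a1, Nags, Otc and Asl, and wholly above them for Arg2 and Odc1. Over all genes 18.8% lay wholly below and 17.8% wholly above, together 36.6%. The median difference of the 8 genes was -0.34, and that of all genes tested -0.02.

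**Figure D1:**
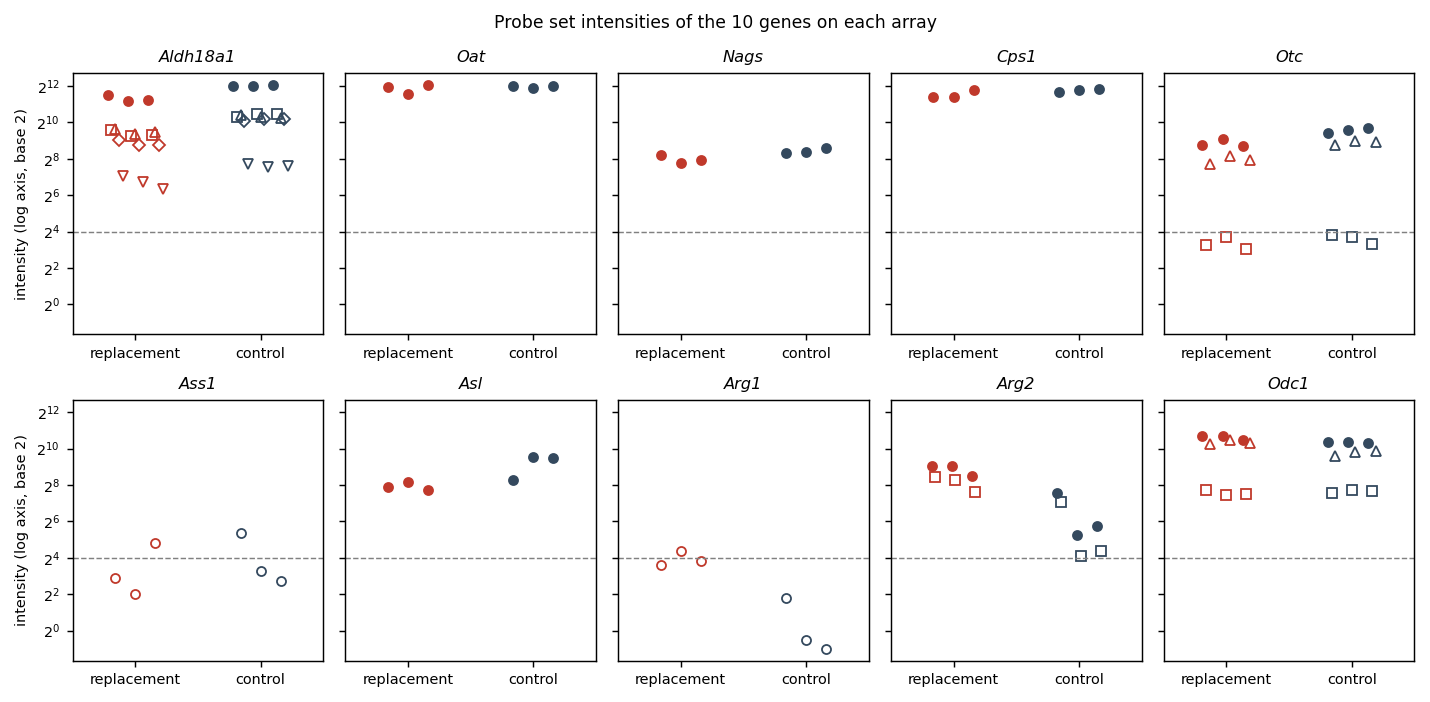
Intensity of every probe set paired with 1 of the 10 genes alone, on a log axis. The 3 replacement arrays lie left of the 3 control arrays in each panel (replicates 1 to 3 from left to right). The brighter probe set paired with Ass1 and Gm5424 together is not drawn. Filled symbols mark the probe set that stood for the gene, open symbols the others, and the dashed line the floor of 16. Arg2 is high in the replacement samples and spread out in the controls, and Aldh18a1, Otc and Asl lie lower in the replacement samples.

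Aldh18a1 opens the pathway: it makes pyrroline carboxylate from glutamate, the precursor of both ornithine and proline. Its brightest probe set gave 2917, 2286 and 2424 in the replacement samples, against 4128, 4105 and 4162 in the control samples. All replacement arrays lay under all control arrays, and the control arrays differed little from each other. The difference was -0.71 (SE 0.234, 95% interval -1.23 to -0.18), which is 1.63-fold lower, and it did not pass (limma adjusted p = 0.0972). The other probe sets of Aldh18a1 gave -1.28, -1.0, -0.95 and -0.83, each with no overlap between the groups. When every probe set was tested, 2 of its 5 passed, with an adjusted p = 0.0191 for the probe set at -1.28 and 0.0473 for that at -1.0. Of all probe sets 5.92% were called in that test, 2.69% lower and 3.22% higher. Averaged over its 5 probe sets Aldh18a1 passed (-0.95, limma adjusted p = 0.0321, where its alternatives ran from 0.0241 to 0.303). All but 1 of the 5 carry a suffix that marks possible cross-hybridization, and the exception is the probe set at -1.0.

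Oat, which turns pyrroline carboxylate into ornithine, had intensities of 3892, 3031 and 4221 in the replacement samples and of 4021, 3750 and 4153 in the control samples. The groups overlapped. The difference was -0.11 (SE 0.245, 95% interval -0.66 to 0.43, limma adjusted p = 0.830), and it was 0.02 without replacement 2, the lowest array.

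Nags makes N-acetylglutamate, which Cps1 needs to be active. Nags had 291, 215 and 240 in the replacement samples and 322, 332 and 387 in the control samples. These groups did not overlap, yet the nearest arrays were close, at 291 and 322. The difference was -0.46 (SE 0.242, 95% interval -1.0 to 0.08, limma adjusted p = 0.282).

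Cps1, which makes carbamoyl phosphate from ammonia and bicarbonate in mitochondria, had 2734, 2686 and 3492 in the replacement samples and 3307, 3510 and 3655 in the control samples. Replacement 3 lay among the control arrays. The difference was -0.22 (SE 0.240, 95% interval -0.76 to 0.32, limma adjusted p = 0.631).

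Otc, the X-linked mitochondrial enzyme that forms citrulline, had 432, 537 and 415 in the replacement samples, against 690, 762 and 824 in the control samples. The replacement arrays lay under the control arrays by a clear gap. The difference was -0.69 (SE 0.240, 95% interval -1.23 to -0.15), 1.61-fold lower, and it did not pass (limma adjusted p = 0.112). A second probe set gave 212, 289 and 245 in the replacement samples and 425, 511 and 488 in the control samples, a difference of -0.90. The remaining one lay under the floor on all 6 arrays. Among the arrays read as female, with control 1 as the only control, the difference of Otc was -0.55. Among those read as male, with replacement 1 as the only replacement array, it was -0.87.

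Ass1 joins citrulline to aspartate. The probe set paired with Ass1 alone had 7.5, 4.1 and 28.4 in the replacement samples and 40.9, 9.6 and 6.7 in the control samples, so it reached 16 on 1 array of each group and was not tested. A much brighter probe set is paired with Ass1 and Gm5424 together and was given to neither gene. It read 916, 791 and 582 in the replacement samples and 2089, 2428 and 2531 in the control samples. That is 3.04-fold lower with no overlap, and it was not tested. It was looked up after the values were seen.

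Asl releases arginine from argininosuccinate. Asl had 239, 291 and 213 in the replacement samples and 308, 743 and 726 in the control samples. No array overlapped, but control 1 lay near the replacement arrays and far from the other controls. The difference was -0.95 (SE 0.357, 95% interval -1.75 to -0.15), 1.94-fold lower, and it did not pass (limma adjusted p = 0.136). It was -1.58 without control 1 and -0.33 without control 2 and control 3. Among the arrays read as female, with control 1 as the only control, it was -0.31. Among those read as male, with replacement 1 as the only replacement array, it was -1.62.

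Arg1 is the cytosolic arginase, abundant in liver and in some macrophages. Arg1 had 12.4, 20.9 and 14.0 in the replacement samples and 3.5, 0.7 and 0.5 in the control samples. It reached 16 on replacement 2 alone, so it was not tested and no fold is given. The 10 macrophage markers summed to 1260 to 1873 in the replacement samples and 2751 to 3218 in the control samples, mostly from Csf1r. Csf1r fell 2.72-fold (limma adjusted p = 0.0143), Mrc1 rose 4.55-fold (limma adjusted p = 0.00602) and Chil3 stayed under 16 on all arrays. The 4 other macrophage markers tested, Adgre1, Cd68, Retnla and Lyz2, did not pass in limma (adjusted p = 0.813, 0.347, 0.528 and 0.943). The part of macrophages in the Arg1 and Arg2 values was not tested. The hepatocyte markers, 9 with a probe set of 10 listed, summed to 883 to 2982 in the replacement samples and 2961 to 4134 in the control samples, and none of the 6 tested passed in limma. Most of that sum was Ttr, with 2760, 639 and 1101 in the replacement samples and 2741, 3698 and 3912.5 in the control samples (-1.37, limma adjusted p = 0.132). Alb, the defining hepatocyte product, was at 10.9 to 19.1 in the replacement samples and 3.7 to 18.7 in the control samples, and F9 stayed under 16 on all arrays. The part of hepatocyte transcripts in these values was not tested.

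Arg2 is the mitochondrial arginase, found mainly outside the liver. It had 536, 536 and 363 in the replacement samples, against 187, 38.4 and 54.6 in the control samples. All replacement arrays lay above all controls, and the controls were far apart, with control 1 highest. Arg2 rose 5.09-fold, with a difference of 2.35 (SE 0.499, 95% interval 1.23 to 3.47, limma adjusted p = 0.0196, 3 replacement and 2 control replicates). A second probe set gave 341, 307 and 198 in the replacement samples and 136, 16.9 and 20.5 in the control samples, a difference of 2.45 (SE 0.705) that did not pass when every probe set was tested (limma adjusted p = 0.0854).

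The call of Arg2 rested on few arrays. Its difference was 3.36 without control 1 (limma adjusted p = 0.0644) and 1.33 without control 2 and control 3 (0.200), and the call was also lost without replacement 1 (0.0512), replacement 2 (0.0782) or replacement 3 (0.0823). It was lost too with no filter on dim probe sets (0.281), a floor of 1 (0.0568) or a floor of 32 (0.200), with the difference at 2.35 each time. With 1 control replicate left, its spread is taken from the replacement group. Control 1, the control with the highest Arg2, was also the one with the highest sum of fibroblast and smooth muscle markers. Des, one of these markers, went the other way, at 8.6 in control 1 against 51.8 and 59.4 in control 2 and control 3. The sum of Paneth cell markers was also highest in control 1, at 4885.8, against 2113.9 and 2206.1 in control 2 and control 3. Of these markers Mmp7 was called higher in the replacement samples (1.30, limma adjusted p = 0.0440). It had 556, 471 and 365 there, against 268, 156 and 105 in the control samples, with control 1 the highest control. Lyz1 (-0.53) and Ang4 (0.21) did not pass. Among the controls the endothelial, T and B lymphocyte, erythroid, neutrophil and goblet cell sums were highest in control 1 too. So was the macrophage sum, at 3217.5, against 2751.3 and 2787.7 in control 2 and control 3. The hepatocyte sum was lowest in control 1, and the enterocyte sum lay between those of the other controls. The part of other cell types in the Arg2 level of control 1 was not tested. In bulk samples fewer cells of a type and less RNA per cell cannot be told apart. Among the arrays read as female, with control 1 as the only control, the difference of Arg2 was 1.24. Among those read as male, with replacement 1 as the only replacement array, it was 3.55. This split separates control 1 from control 2 and control 3, as leaving them out did. With that reading as a term it was 2.23 (SE 0.439, limma adjusted p = 0.00908).

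Odc1 decarboxylates ornithine, the first step of polyamine synthesis, and its protein turns over fast. Its brightest probe set had 1643, 1644.5 and 1427 in the replacement samples and 1296, 1321 and 1251 in the control samples. The groups did not overlap, but the difference was small, at 0.28 (SE 0.227, 95% interval -0.23 to 0.79, limma adjusted p = 0.503). Its probe sets disagreed, and only the brightest carries the suffix that marks possible cross-hybridization. A second gave 1203, 1400 and 1246 in the replacement samples and 777, 896.5 and 940 in the control samples (0.60, SE 0.234), and the last 208, 174 and 179 in the replacement samples and 188, 214 and 202 in the control samples (-0.08, SE 0.232). None of the 3 passed.

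**Figure D2:**
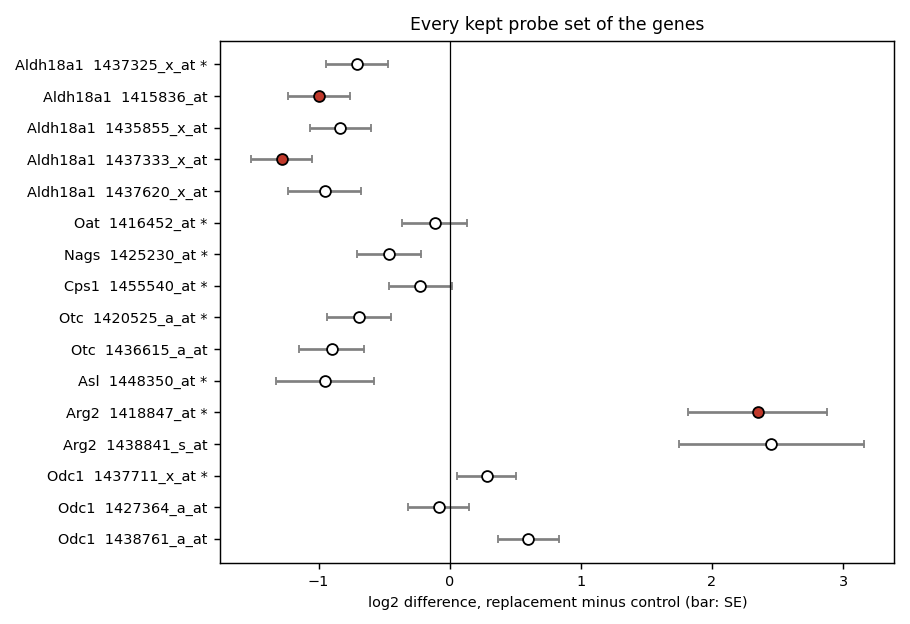
Log2 difference, replacement minus control, of the 16 kept probe sets of the 8 tested genes, with the SE of the moderated fit over every probe set as bars. A star marks the probe set that stood for the gene, and red points had an adjusted p under 0.05 in that fit: 1 probe set of Arg2 above 0 and 2 of Aldh18a1 below 0.

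Beyond the 10 genes, lists of 61 other genes of these pathways were read from the same test, and 48 of them were tested. A gene stood by its brightest probe set, as above. Of these 7 rose and 4 fell, together 22.9%, beside 9.12% over all genes, and their median difference was -0.16. The replacement arrays lay wholly above the control arrays for 15 of them and wholly below for 15, where 17.8% and 18.8% of all genes did so. The lists were drawn up with earlier results of these data known. Without control 1, and likewise without control 2 and control 3, none of the 48 passed in limma, while 19 and 10 had an unadjusted p under 0.05. Without replacement 2, and likewise without replacement 3, 4 passed.

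Among polyamine genes 4 of 15 tested rose and none fell, where 4.46% of all genes rose and 4.66% fell, and their median difference was 0.23. Mtap, which recycles the methylthioadenosine left by spermidine and spermine synthesis, had 201, 368 and 235 in the replacement samples and 42.3, 65.4 and 54.9 in the control samples. The groups were far apart, and Mtap rose 5.15-fold (2.37, SE 0.310, limma adjusted p = 0.00189), with all 4 of its probe sets passing at 1.08 to 2.41 when every probe set was tested. Smox, the spermine oxidase, had 186, 223 and 196 in the replacement samples and 92.4, 87.2 and 84.6 in the control samples, and rose 2.25-fold (1.17, SE 0.230, limma adjusted p = 0.0136). Azin1, the antizyme inhibitor that protects Odc1 protein from degradation, had 692, 792 and 960 in the replacement samples and 404, 371 and 374 in the control samples. Azin1 rose 2.08-fold (1.06, SE 0.244, limma adjusted p = 0.0274), and its 3 probe sets gave 1.06 to 1.74. The Azin1 call was ended by 8 of 21 alternatives, that of Smox by 5 and that of Mtap by 4. Srm, the spermidine synthase, had 260.5, 346 and 286 in the replacement samples and 129, 155 and 172 in the control samples. Srm rose 2.03-fold (1.02, SE 0.248, limma adjusted p = 0.0340), a call that 9 of 21 alternatives ended, among them leaving out replacement 2 or replacement 3.

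The antizymes that inhibit Odc1 protein included Oaz1 at -0.09 and Oaz2 at -0.26. Sat1, the acetyltransferase that starts polyamine breakdown, was at -0.10. Eif5a, the protein that carries the spermidine-derived residue hypusine, was at 0.28, and Dhps and Dohh, which form that residue, at -0.22 and 0.23. None of these passed. The Sms probe sets are paired with Sms-ps as well and were not tested. The brighter had 203, 269 and 226 in the replacement samples and 135, 147 and 141 in the control samples. Amd1 and Paox were not analysed here.

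Enzymes that use arginine or its derivatives for creatine, nitric oxide and agmatine metabolism had calls both ways, with 2 of 8 higher, 3 lower and a median difference of -0.44. Over all genes 4.46% were called higher and 4.66% lower. Agmat, annotated as agmatinase, had 216, 226 and 174 in the replacement samples and 627, 554 and 574 in the control samples. Agmat fell 2.91-fold (-1.54, SE 0.239, limma adjusted p = 0.00448), with wide separation of the groups. Gamt and Gatm make creatine from arginine and glycine. Gamt had 52.5, 33.1 and 41 in the replacement samples and 92.6, 164 and 147 in the control samples, and fell 2.89-fold (-1.53, SE 0.305, limma adjusted p = 0.0145). Gatm had 10.3, 32.5 and 23.7 in the replacement samples and 45.8, 93.8 and 98.5 in the control samples. Gatm fell at least 2.87-fold, since 1 of 3 replacement arrays lay under the floor (limma adjusted p = 0.0380), and 11 of 20 alternatives ended its call. Gatm too met the filter only with its control arrays, and with a floor of 32 it was at -1.04 (adjusted p = 0.234).

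Ckb, the brain-type creatine kinase, had 1786, 1372 and 1299 in the replacement samples and 487, 413 and 442 in the control samples. Ckb rose 3.22-fold (1.69, SE 0.247, limma adjusted p = 0.00324), with no overlap. Ddah1, which breaks down methylated arginine to citrulline, had 348, 384 and 416 in the replacement samples and 41.4, 122 and 167 in the control samples. Control 1 was the lowest array of Ddah1, unlike for Arg2. Ddah1 rose 4.96-fold (2.31, SE 0.438, limma adjusted p = 0.0120), and its difference was 1.42 without control 1 and 3.20 without control 2 and control 3. Of the nitric oxide synthases, which also consume arginine, Nos1 did not pass (-0.50), Nos2 stayed at 2.1 or lower on all arrays and Nos3 was not tested.

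Among 13 transporters 1 rose and 1 fell, with a median difference of -0.36. That is 15.4%, not far from the 9.12% of all genes. Slc7a2, a carrier of arginine and other cationic amino acids, had 14.5, 12.8 and 16.6 in the replacement samples and 39.2, 44.1 and 51.6 in the control samples. Slc7a2 fell at least 2.67-fold, since 2 of 3 replacement arrays lay under the floor (limma adjusted p = 0.00579). Slc7a2 met the filter only with its control arrays, so some difference was built into its selection, and with a floor of 32 it was at -0.43 and did not pass (adjusted p = 0.134). The other Slc7 carriers went both ways, and none passed. Slc7a1, brighter at 349, 326 and 387 in the replacement samples and 283.5, 197 and 190 in the control samples, was at 0.59 (limma adjusted p = 0.190). Slc7a6 was at 0.85 (0.0869), Slc7a7 at -0.40 (0.322) and Slc7a9 at -0.34 (0.423). Second probe sets gave 0.92 for Slc7a1, 1.01 for Slc7a6 and 0.13 for Slc7a7. Slc25a12, a mitochondrial aspartate and glutamate carrier, had 103, 127 and 121 in the replacement samples and 59.7, 38.7 and 34.2 in the control samples. Its brightest probe set rose 2.50-fold (1.32, SE 0.275, limma adjusted p = 0.0178), but its other probe sets gave 0.25 and -0.32, and the mean of the 3 did not pass. Slc25a15, the carrier that brings ornithine into mitochondria for Otc, had 1159, 1204 and 1378 in the replacement samples and 1544, 1688 and 1628 in the control samples. On this brightest probe set the groups did not overlap, and the difference did not pass (-0.36, SE 0.229, limma adjusted p = 0.377). A second probe set of Slc25a15 overlapped between the groups, at -0.12. Slc6a19, a neutral amino acid carrier of the brush border, was at -0.81 (limma adjusted p = 0.0735).

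None of the 9 genes of the glutamate, glutamine and proline branch passed in limma, where 4 had an unadjusted p under 0.05, and their median was -0.09. Prodh, the proline dehydrogenase, had 109, 109 and 106 in the replacement samples and 123, 337 and 321 in the control samples, with control 1 again near the replacement arrays. Glud1, the glutamate dehydrogenase, was at 0.79 (limma adjusted p = 0.111). Of the 3 genes for bicarbonate supply and Cps1 control none passed, and 2 had an unadjusted p under 0.05. Car5a, a mitochondrial carbonic anhydrase, was at -1.20 (limma adjusted p = 0.0529). Its values were 29.5, 14.6 and 13.2 in the replacement samples and 36.9, 56 and 54.8 in the control samples. Car5a met the filter only with its control arrays, so some difference was built into its selection. Over the alternatives its difference shrank to as little as -0.50. Sirt3, a mitochondrial deacylase, was at -1.01 (limma adjusted p = 0.0596). Sirt5, which acts on Cps1, was at -0.21.

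**Figure D3:**
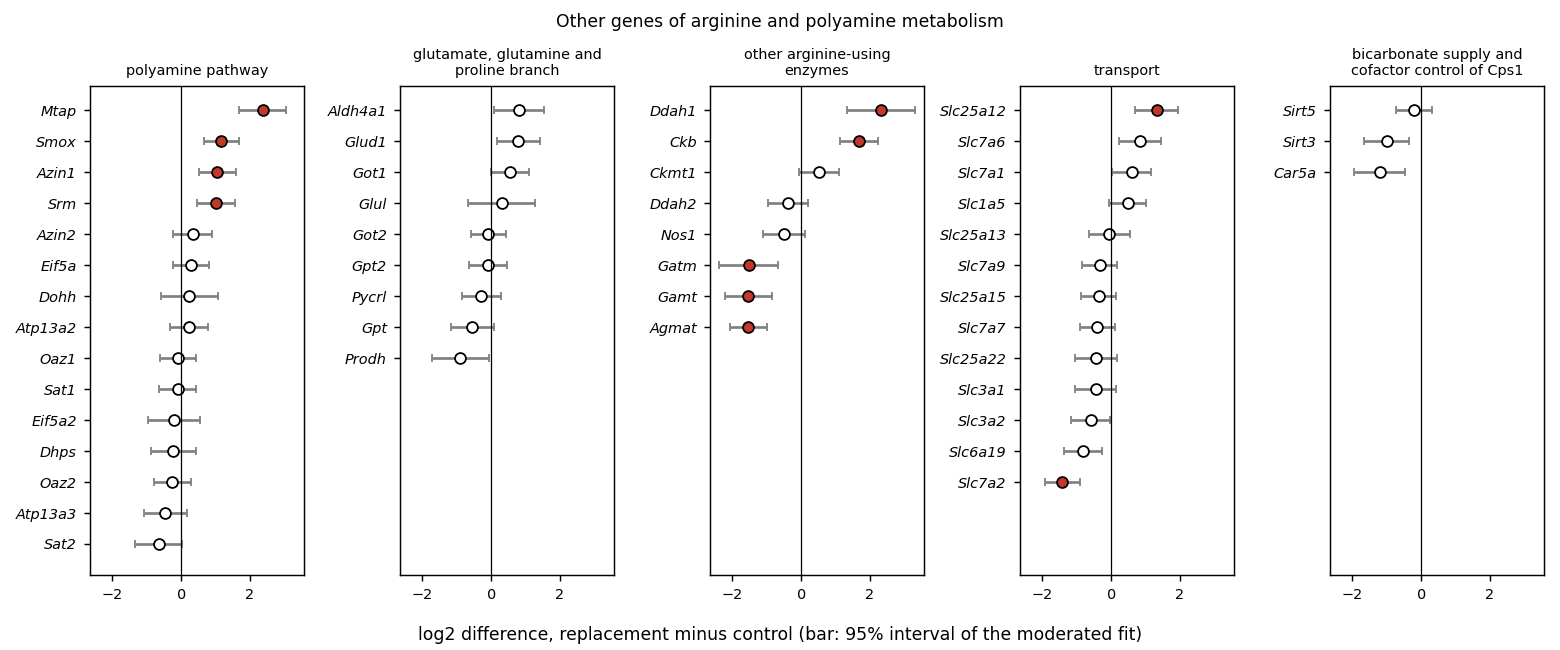
Log2 difference, replacement minus control, of the 48 tested pathway genes in 5 panels by list, with 95% intervals as bars and genes past an adjusted p of 0.05 in red. The 4 red polyamine genes all lie above 0, and the 5 red genes of the arginine-using list lie on both sides.

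Several genes of the list passed or missed the threshold by the choice of processing. Control 2 and control 3 taken as separate samples gave adjusted p-values under the threshold for Aldh18a1 (-0.71, limma adjusted p = 0.0241), Otc (-0.72, 0.0269) and Asl (-1.16, 0.0414) besides Arg2. Over all alternatives the adjusted p ran from 0.0241 to 0.303 for Aldh18a1, 0.0269 to 0.355 for Otc, 0.0246 to 0.601 for Asl and 0.00210 to 0.281 for Arg2.

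**Figure D4:**
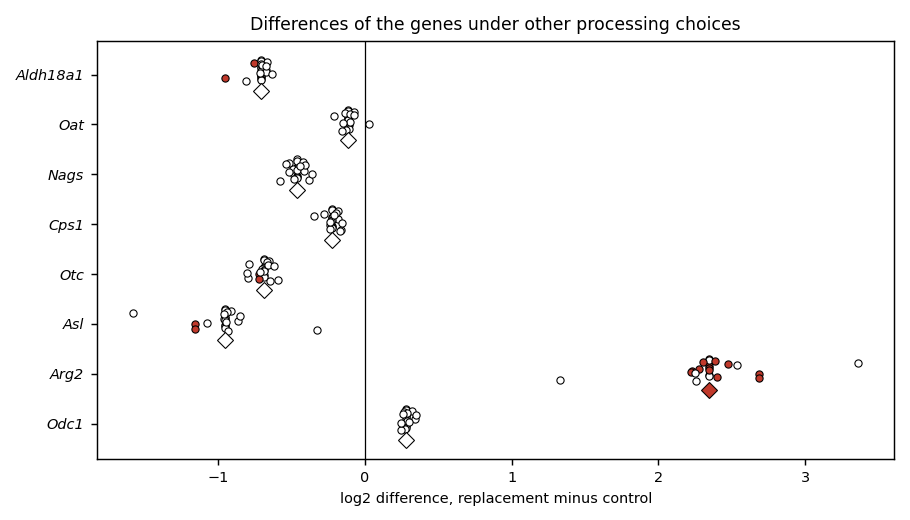
Log2 difference, replacement minus control, of the 8 tested genes under 21 alternatives (circles) and in the main analysis (diamond), in red where the adjusted p was under 0.05 and white otherwise. Arg2 lies above 0 throughout, between 1.33 and 3.36, Oat crosses 0 once, and the 3 other genes with red points, Aldh18a1, Otc and Asl, stay below 0.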

How the data were processed

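RNA from 3 replacement and 3 control samples was measured on Affymetrix mouse arrays, 1 array per sample. The deposited values are linear probe set intensities, and the authors had scaled them, since each array averages 100 once 2% of its values are trimmed at either end. GCRMA and limma are named per the submitters' processing notes, and their versions, their roles and the summary method behind the intensities are not given in the sources used here.

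Of 45101 probe sets 34945 were paired with 1 gene in the platform annotation, 932 with several, 9160 were not named there and 64 were array controls. Symbols were updated through RefSeq tables, in which 34741 were found. Intensities were floored at 16 and log2 was taken, and probe sets under 16 on more than 3 of the 6 arrays were dropped. The kept probe set with the highest mean stood for a gene. Control 2 and control 3 were averaged. Differences were tested with limma 3.58.1 in R 4.3.3 (lmFit, eBayes) with Benjamini-Hochberg adjustment over 12994 genes, after the steps were tested on simulated data. Figures were drawn with matplotlib 3.10.9. Array number limits the precision, and a floor compresses differences of dim probe sets.

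The 10 genes, the other lists and the tests were chosen with earlier results of these data known. All 10 genes were named, besides Cdh1 and Cdh2, and genes of the other lists could be named. Alternatives changed the treatment of control 2 and control 3, the filter, the floor, the scaling, the probe set rule, the array weights, the eBayes options, a replicate block, a term for sex read from transcripts, and the samples included.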

Additional observations from a re-analysis of the deposited data

Results flagged for a closer look

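Of the 10 genes and the other pathway genes, 5 probe sets outside the test had every replacement array above every control array. Their lowest replacement values follow, and none was tested. In the other direction 3 lay wholly below the controls, the shared Ass1 probe set described above and dim ones of Slc7a2 and Oaz3, and no share over all probe sets outside the test was computed. Arg1 had a lowest replacement array of 12.4, under the floor of 16, against a highest control array of 3.5. Sms, the spermine synthase, had lowest replacement values of 202.9 and 162.0 on probe sets paired with Sms-ps too, against highest control values of 146.6 and 113.1. A second, dim probe set of Smox had a lowest replacement value of 9.7, against a highest control value of 9.6. A dim probe set of Gpt2 had a lowest replacement value of 5.3, against a highest control value of 4.6.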

How the results depend on the processing

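All genes gave 1185 calls in the main analysis. The count was 2352 with control 2 and control 3 as separate samples, 162 with no filter on dim probe sets, 751 with a floor of 1, 291 with a floor of 32 and 1810 with array weights. Leaving out replicates gave 4 (without control 2 and control 3) to 1660 (without replacement 1), with 11 without control 1, 533 without replacement 2 and 374 without replacement 3. Of the 8 tested genes of the list 1 passed in the main analysis. The count was 4 with 6 separate arrays, 2 with the mean of probe sets, 2 with array weights and 0 in limma with no filter, a floor of 1 or a floor of 32, where 4 had an unadjusted p under 0.05 each time. Leaving out replicates gave 0 to 1, and 2 to 4 had an unadjusted p under 0.05 where the limma count was 0. The other pathway genes gave 11 calls in the main analysis, 1 with no filter, 2 with a floor of 32, and 0 to 13 without single replicates, with 4 without replacement 2 or replacement 3. With the replicate number as a block on 6 arrays the counts were 2102 for all genes, 4 for the list and 17 for the pathway genes. Deviations of same-numbered samples from their group means correlated at 0.092, 0.026 and 0.055, and those of differently numbered ones at -0.096 to 0.068. With so few arrays, and control 2 and control 3 nearly alike, this cannot tell whether same-numbered samples were paired. The difference of Oat ran from -0.21 to 0.02 when replicates were left out, and it reversed to 0.025 without replacement 2. Of 168 values of the 8 genes under alternatives 151 kept direction and side of the threshold, 8 gained and 8 lost the call, and 1 reversed. The cause of these changes was not tested. Dim probe sets near the floor limit what could be measured for Arg1 and Ass1.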
